A study of Mus musculus with 2 samples.

Results

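Heparan sulfate is a sulfated sugar chain that cells build onto a small set of core proteins. The genes described here are 10 that build these chains, trim their sulfate or carry them: the sulfatase genes Sulf1 and Sulf2, the polymerase genes Ext1 and Ext2, the sulfotransferase genes Ndst1, Hs2st1 and Hs6st1, and the core protein genes Sdc1, Sdc4 and Gpc1. They were taken by symbol from a table of 55468 Ensembl gene rows (55337 symbols after rows of 1 symbol were added up), and all 10 were found. The set was chosen by measured values in part: Sulf2 was selected on its low ratio between the libraries, so that ratio is a description and carries no test.

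The samples were KPC2, a mouse pancreatic cancer cell line. The wild type cells were untreated, and the resistant cells were kept long-term in gemcitabine, a deoxycytidine analogue, at 260 ng/mL. Both grew in the same serum-supplemented medium. There was 1 RNA library per group, so differences describe these 2 libraries, and the drug itself, a lasting state of the resistant cells and the variation between any 2 cultures cannot be told apart. In bulk RNA, fewer cells of a kind and less RNA per cell cannot be told apart either. The sources used here do not say whether the resistant line is 1 clone. The duct keratin genes Krt8, Krt18 and Krt19 stood between 1123 and 1864 FPKM, and of the epithelial adhesion genes Cdh1 stood at 206.5 FPKM in wild type cells and 164.1 FPKM in resistant cells and Epcam at 0.21 and 0.10 FPKM. The duct regulator gene Sox9 stood at 8.19 FPKM in wild type cells and 1.88 FPKM in resistant cells. Summed over a list and library, the 8 fibroblast, 6 endothelial and 6 leukocyte markers lay between 0.015 and 0.340 FPKM, with Col1a2, Cd3e and Tek among those listed at 0. All 5 acinar and 5 islet markers were listed at 0 in both libraries.

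Each chain starts on a serine of the core protein with a short sugar linker, is lengthened by the EXT polymerases and is then modified. NDST enzymes replace acetyl by sulfate on the glucosamine nitrogen, and further sulfotransferases add sulfate to the oxygen atoms of the sugars. The modified stretches bind growth factors such as the FGFs and help them reach their receptors. SULF enzymes work outside the cell and take a sulfate group off glucosamine within finished chains, which changes what the chains bind. Syndecans span the membrane and glypicans are held to it by a lipid anchor, and both are known from pancreatic ducts and tumours.

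Sulf2 stood farthest from equality among the members, so the sequence around its start is shown first. RefSeq lists windows of 250 bases before to 50 after a start on GRCm38.p6 for Sulf2, Sdc1, Sdc4, Ext2, Hs2st1 and Hs6st1, with 2 windows for Sulf2, both on the minus strand. The Sdc4 window, from the same chromosome and strand, is set beside them because that gene had almost the same level in both libraries. Capitals mark GGGCGG on either strand (CCGCCC as printed when it lies on the other strand), a GC-rich box found in many promoters.
Sulf2, chr2:166155634-166155933: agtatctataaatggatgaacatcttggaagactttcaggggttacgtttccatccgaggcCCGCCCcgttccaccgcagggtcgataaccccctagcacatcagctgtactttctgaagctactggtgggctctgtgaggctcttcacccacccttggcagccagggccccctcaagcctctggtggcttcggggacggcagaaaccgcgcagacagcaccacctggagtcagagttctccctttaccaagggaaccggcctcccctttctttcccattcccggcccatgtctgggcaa
Sulf2, chr2:166155236-166155535: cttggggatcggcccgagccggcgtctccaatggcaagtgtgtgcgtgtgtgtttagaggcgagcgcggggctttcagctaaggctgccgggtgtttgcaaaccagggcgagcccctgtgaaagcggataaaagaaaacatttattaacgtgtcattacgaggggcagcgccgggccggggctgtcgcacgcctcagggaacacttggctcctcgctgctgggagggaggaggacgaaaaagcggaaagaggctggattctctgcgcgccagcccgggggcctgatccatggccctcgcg
Sdc4, chr2:164443139-164443438: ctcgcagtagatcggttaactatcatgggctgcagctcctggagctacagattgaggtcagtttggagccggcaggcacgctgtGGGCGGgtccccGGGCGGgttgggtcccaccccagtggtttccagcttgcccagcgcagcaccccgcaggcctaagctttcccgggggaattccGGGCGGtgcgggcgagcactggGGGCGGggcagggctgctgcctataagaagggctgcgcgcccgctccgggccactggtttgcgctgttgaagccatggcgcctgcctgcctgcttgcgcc

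The outer Sulf2 window held 1 GGGCGG and 12 CpG dinucleotides, and the inner one held none and 26. The Sdc4 window held 4 and 22. In the windows of Ext2, Hs2st1, Sdc1 and Hs6st1, all within 2-fold between the libraries, GGGCGG occurred 0, 2, 3 and 7 times. Among all 32851 windows of that length, 35.7% held GGGCGG at least once on either strand, and the median CpG count was 7. The outer Sulf2 window also held TATAAA, which 13.6% of all windows did, and no member's window held TGACGTCA, which 1.79% of all windows did. CACGTG was found once, in the Ext2 window, and in 7.15% of all windows. These are counts of letters, and no binding or methylation was measured.

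Sulf2 (ENSMUSG00000006800, GRCm38 chromosome 2, 166073089 to 166155663, minus strand) stood at 27.1 FPKM in wild type cells and at 1.09 FPKM in resistant cells. FPKM scales the fragments of a gene by transcript length and by the depth of its library. The wild type level was thus 25.0 times the resistant one, with a 95% interval for counting error alone of 20.7 to 30.6 times. The interval rests on about 2868 and 111 fragments, counted back from the FPKM on the longest coding transcript. With 1 FPKM added to both values the log2 ratio was -3.75, and 0.205% of the 12193 genes measured at 1 FPKM or more in either library had a lower one. The rank among genes of like level uses the same ratio that Sulf2 was selected on, so it only describes that ratio. Of 3610 measured genes between 13.6 and 54.2 FPKM in the wild type library, 16 had a lower resistant-to-wild-type ratio than Sulf2.

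The other extracellular sulfatase gene, Sulf1 (ENSMUSG00000016918, chromosome 1, 12692277 to 12861192), stood at 0.019 FPKM in the wild type library and was listed at 0 in the resistant one. Sulf2 therefore made up 99.9% of the summed FPKM of both sulfatase genes in the wild type library. That sum was 27.1 FPKM in wild type cells and 1.09 FPKM in resistant cells. Sulf1 was the 1 member of 10 that did not reach 1 FPKM in either library. The heparanase gene Hpse, whose product cuts the chain itself, stood at 3.06 FPKM in wild type cells and 4.005 FPKM in resistant cells, and its relative Hpse2 was listed at 0 in both.

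**Figure D1:**
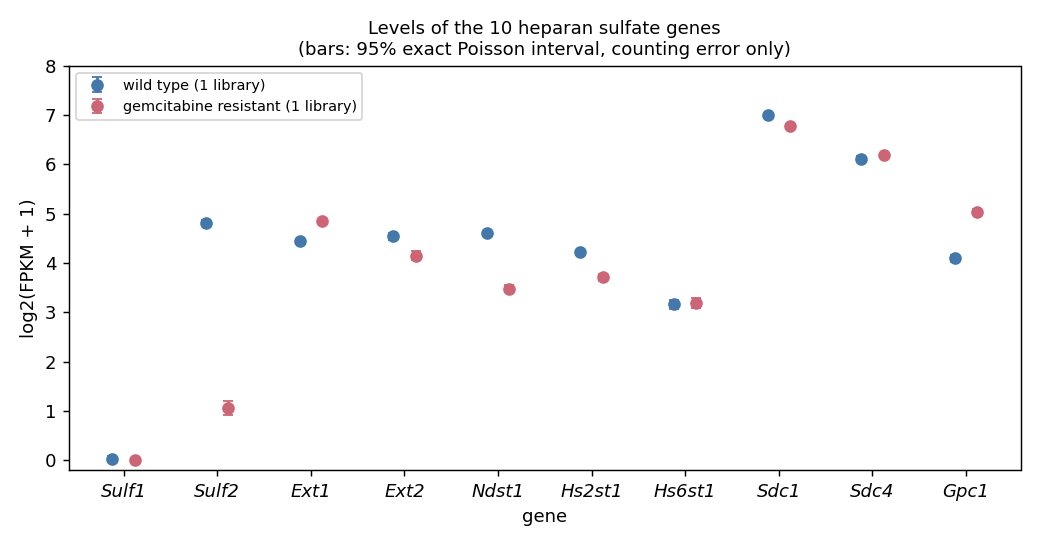
Level of each of the 10 genes as log2(FPKM + 1) in the wild type (blue) and the gemcitabine-resistant library (red), with 95% exact Poisson intervals for counting error alone where fragments could be estimated. Sulf2 stands at 27.1 and 1.09 FPKM, Ndst1 at 23.4 and 10.2 FPKM, and the pairs of Sdc4 and Hs6st1 lie almost level.

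Ndst1 (ENSMUSG00000054008, chromosome 18, 60684494 to 60748650) was the other member at least 2-fold lower in the resistant library. It encodes the N-deacetylase and N-sulfotransferase that opens chain modification in most tissues. Its level was 23.4 FPKM in wild type cells and 10.2 FPKM in resistant cells, 2.29 times apart (95% counting interval 2.16 to 2.44 times), for a log2 ratio of -1.12. The ribosomal protein gene Rps14, at 1237 FPKM in wild type cells and 1720 FPKM in resistant cells, overlaps it on the opposite strand within 1 deposited locus. Annotated exons of Ndst1 and Rps14 share 0 bases. The sources used here do not say how fragments of an overlapping pair were split, and the part of Rps14 in the Ndst1 value was not tested.

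On the log2(FPKM + 1) scale, 2 of the 9 measured members were at least 2-fold lower in the resistant library, where 8.37% of all measured genes were, and none was at least 2-fold higher, where 7.9% of all measured genes were. Of these 2, Sulf2 was picked on its ratio, so the count is read no further. Ndst1 lay just beyond the 2-fold line at -1.12, and Gpc1 at 0.94 lay just within 2-fold. The median log2 ratio of the 9, Sulf2 among them, was -0.22, beside 0.02 over all measured genes, and is likewise read no further. Without Ndst1 that median was -0.10 and 1 member was at least 2-fold lower.

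Both polymerase genes, whose products work as a complex, were expressed at like levels and lay on opposite sides of equality. Ext1 (ENSMUSG00000061731, chromosome 15, 53064038 to 53346159) stood at 20.9 FPKM in wild type cells and 27.8 FPKM in resistant cells, 1.33 times higher in the latter (95% counting interval 1.28 to 1.39). Ext2 (ENSMUSG00000027198, chromosome 2, 93661028 to 93822568) stood at 22.3 FPKM in wild type cells and 16.8 FPKM in resistant cells, 1.33 times lower in the latter (1.23 to 1.44). The level of Ext1 over that of Ext2 was 0.94 in wild type and 1.66 in resistant cells. Both differences lay beyond counting error and within 2-fold, as 83.7% of all measured genes did.

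Hs2st1 (ENSMUSG00000040151, chromosome 3, 144429706 to 144570181), which encodes the uronic acid sulfotransferase, was the next lowest member. Its level was 17.6 FPKM in wild type cells and 12.1 FPKM in resistant cells, 1.45 times apart (95% counting interval 1.37 to 1.55). Hs6st1 (ENSMUSG00000045216, chromosome 1, 36068400 to 36106446) encodes the enzyme that adds the sulfate group on glucosamine of the kind SULF enzymes remove. It stood at 7.94 FPKM in wild type cells and 8.09 FPKM in resistant cells, a ratio of 1.02 whose counting interval of 0.91 to 1.14 spans equality. Its relatives Hs6st2 and Hs6st3 were listed at 0 in both libraries. The level of Sulf2 over that of Hs6st1 was therefore 3.41 in wild type and 0.134 in resistant cells. An antisense gene, Gm37335, covers 8.07% of the exon bases of Hs6st1 and stood at 4.14 FPKM in wild type cells and 1.90 FPKM in resistant cells.

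Among the core proteins, Sdc1 (ENSMUSG00000020592, chromosome 12, 8771323 to 8793715), the syndecan of epithelia, had the highest level of the 10 genes in both libraries. It stood at 126.9 FPKM in wild type cells and 108.6 FPKM in resistant cells, 1.17 times lower in the latter (95% counting interval 1.13 to 1.20). Sdc4 (ENSMUSG00000017009, chromosome 2, 164424247 to 164443887), a syndecan of focal adhesions, stood at 68.3 FPKM in wild type cells and 71.9 FPKM in resistant cells. With both libraries scaled to the same upper quartile, the log2 ratio of Sdc4 turned from 0.07 to -0.02 and that of Hs6st1 from 0.02 to -0.06. The order of Sdc1 above Sdc4 was kept in both libraries, at 1.86 and 1.51 times.

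Gpc1 (ENSMUSG00000034220, chromosome 1, 92831645 to 92860779), the glypican best known from pancreatic tumours, was the member with the highest ratio. It stood at 16.1 FPKM in wild type cells and 31.9 FPKM in resistant cells, 1.98 times higher in the latter (95% counting interval 1.86 to 2.103). Its log2 ratio of 0.94 was above that of 90.9% of all measured genes. The opposite-strand gene Ankmy1 covers 18.9% of its exon bases and stood at 0.014 FPKM in wild type cells and 0.44 FPKM in resistant cells. The other 5 glypican genes were under 1 FPKM in both libraries, 3 of them listed at 0 in both.

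The summed FPKM of the 4 syndecan and 6 glypican genes hardly differed, at 213.3 in wild type and 213.2 in resistant cells, but its make-up did. Gpc1 made up 7.57% of it in wild type and 15.0% in resistant cells, and Sdc1 59.5% and 50.9%. Sdc4 held 32.1% and 33.7%. Sdc3 was near the level filter, at 1.74 FPKM in wild type cells and 0.82 FPKM in resistant cells, and Sdc2 was close to 0 in both.

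**Figure D2:**
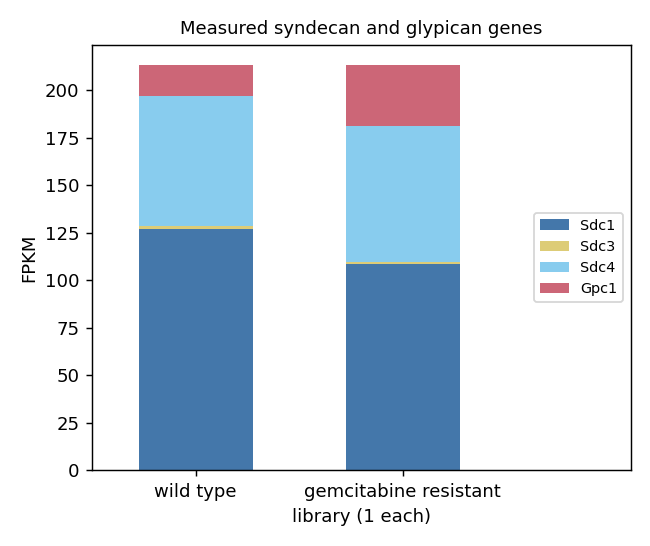
Stacked FPKM (vertical axis) of the 3 syndecan genes and 1 glypican gene measured, for the wild type and the resistant library (1 library each, so without error bars). The stacks are of like height, with Gpc1 at 16.1 and 31.9 FPKM and Sdc1 at 126.9 and 108.6 FPKM.

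The wider pathway was read from 11 lists that hold 56 genes, 36 of them measured. On the log2(FPKM + 1) scale, 4 of the 36 were at least 2-fold lower in the resistant library (Sulf2, Ndst1, Ndst2 and B3galt6). On the same scale 3 were at least 2-fold higher (Hs3st3b1, Extl1 and Arsg), and the median log2 ratio was 0.09. Leaving the 10 members aside, 2 of 27 measured genes were at least 2-fold lower and 3 at least 2-fold higher. Over all measured genes, 8.37% were at least 2-fold lower and 7.9% at least 2-fold higher. Hs3st3b1, Extl1 and Arsg passed the filter of 1 FPKM through the resistant library alone, and B3galt6 through the wild type library alone. The counts are therefore read no further. Sulf2 had the lowest ratio of the 36, and none of the other 35 differed by 4-fold on this scale. That gap depends on the added 1 FPKM. By FPKM alone, Extl1, Hs3st3b1 and Arsg were 45.8, 7.64 and 6.05 times higher in resistant cells, and B3galt6 was 5.55 times lower.

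Both measured NDST genes were at least 2-fold lower in the resistant library, beside 8.37% of all measured genes. Their log2 ratios lay just beyond the line, at -1.12 for Ndst1 and -1.08 for Ndst2. With a pseudocount of 5 FPKM they were -0.90 and -0.49, short of 2-fold, so the count is read no further. Ndst2, the relative best known from mast cell heparin, stood at 3.78 FPKM in wild type cells and 1.26 FPKM in resistant cells, 3.01 times apart (95% counting interval 2.42 to 3.78). The summed level of the 4 NDST genes was 27.2 FPKM in wild type cells and 11.5 FPKM in resistant cells, of which Ndst1 alone made up 85.7% and 88.9%. B3galt6, which adds a galactose of the linker, stood at 1.82 FPKM in wild type cells and 0.33 FPKM in resistant cells. The other 5 measured linker genes lay within 2-fold. Ext1 and Ext2 were the main polymerase transcripts. Extl3 and Extl2, relatives that act at the start of the chain, stood at 7.60 and 7.15 FPKM in wild type cells and 3.76 and 4.24 FPKM in resistant cells. Extl1 stood at 0.031 FPKM in the wild type library, about 3 fragments, and at 1.44 FPKM in the resistant one, a ratio of 45.8 with a counting interval of 15.3 to 224.

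Of the 7 genes for the rare sulfate at the third position of glucosamine, 5 were listed at 0 in both libraries. Hs3st1, whose product makes the antithrombin-binding site, stood at 29.0 FPKM in wild type cells and 19.1 FPKM in resistant cells. Hs3st3b1 stood at 0.34 FPKM in wild type cells and 2.61 FPKM in resistant cells, 7.64 times higher in the latter (95% counting interval 5.44 to 10.9).

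The 7 genes listed that break the chain down in lysosomes were all measured, with a median log2 ratio of 0.48. On the log2(FPKM + 1) scale, 1 of these was at least 2-fold higher, beside 7.9% of all measured genes, and none lower, beside 8.37%. The higher gene, Arsg, stood at 0.31 FPKM in wild type cells and 1.89 FPKM in resistant cells. Arsg passed the filter of 1 FPKM through the resistant library alone, so the count is read no further. The iduronate sulfatase gene Ids stood at 7.05 FPKM in wild type cells and 14.5 FPKM in resistant cells. Idua, near the level filter, stood at 0.47 and 1.05 FPKM. By FPKM alone these 2 were 2.05 and 2.25 times higher in resistant cells, but their log2 ratios with 1 FPKM added were 0.94 and 0.48. The formylglycine-generating enzyme gene Sumf1, whose product activates sulfatases, was level at 13.0 and 12.7 FPKM.

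Of 7 other carriers of heparan sulfate, 5 were measured, each within 2-fold, and Srgn and Tgfbr3 were under 1 FPKM in both libraries. Perlecan, Hspg2, stood at 7.12 FPKM in wild type cells and 12.2 FPKM in resistant cells. Cd44, a hyaluronan receptor with forms that carry heparan sulfate, had the highest level of that list, at 99.4 FPKM in wild type cells and 118.3 FPKM in resistant cells.

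**Figure D3:**
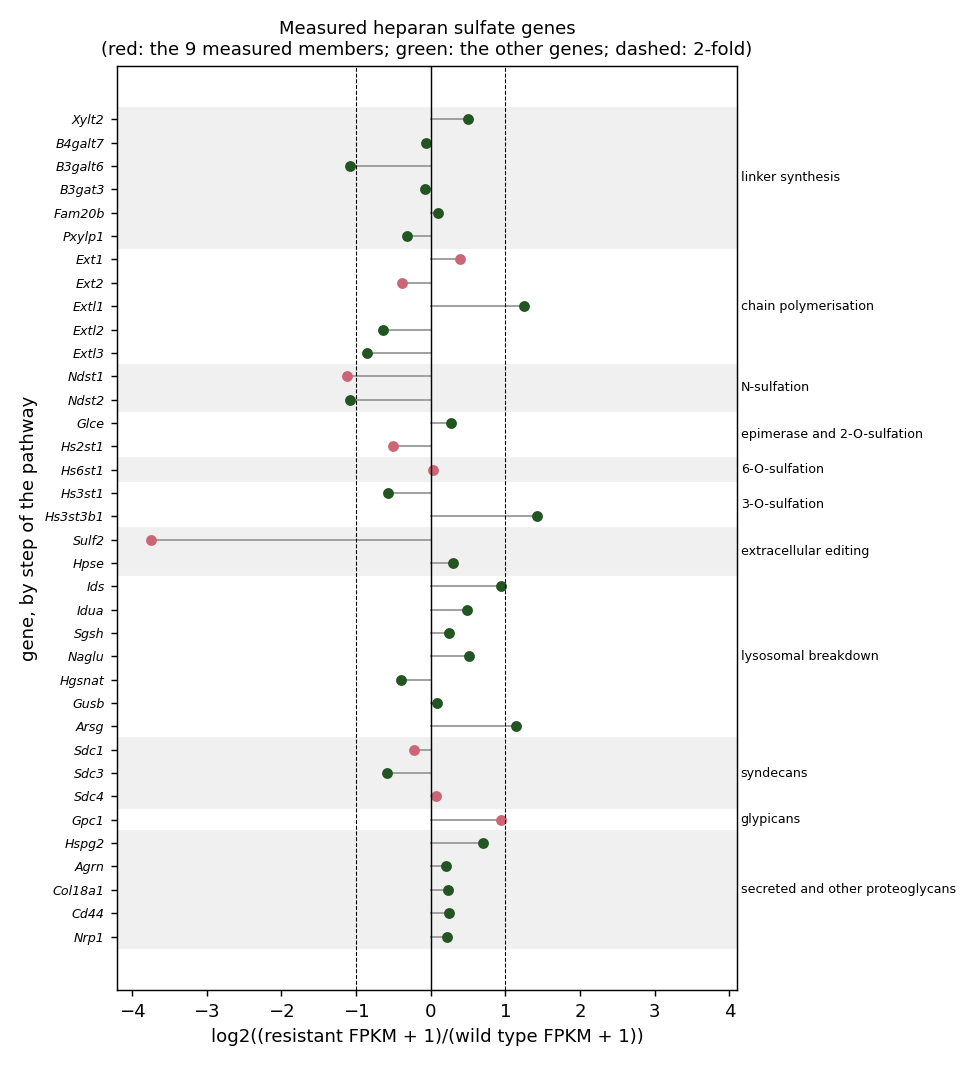
Log2 ratio with a pseudocount of 1 FPKM (horizontal axis, resistant against wild type) of the 36 measured heparan sulfate genes, grouped by step of the pathway, with the 9 measured members in red and the others in green. With this pseudocount, which understates differences of low genes, Sulf2 lies at -3.75 and the remaining genes between -1.12 and 1.43.

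**Figure D4:**
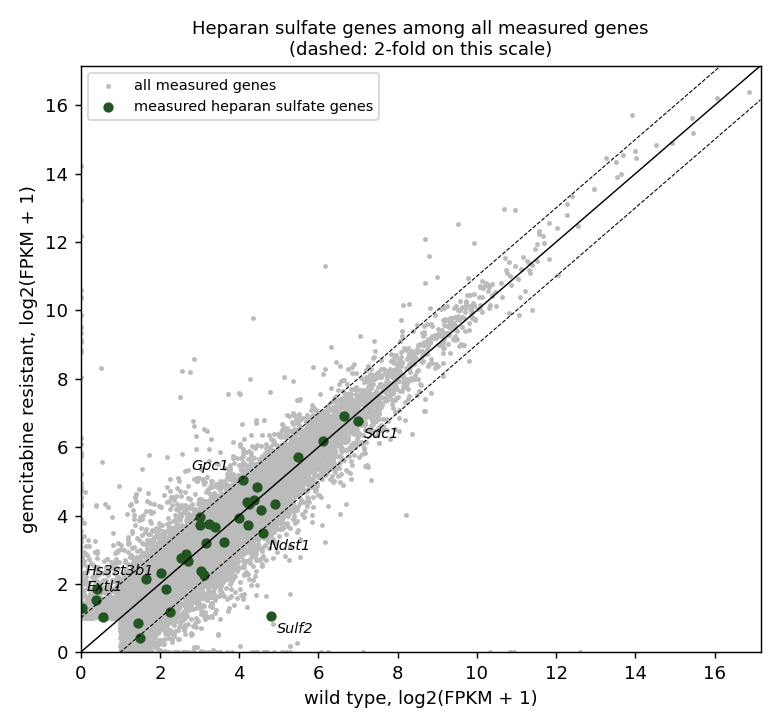
Level of all 12193 measured genes as log2(FPKM + 1) in the wild type (horizontal) and the resistant library (vertical), with the 36 measured heparan sulfate genes in green and 2-fold lines dashed. Most green points lie between the dashed lines, with Sulf2 far below them.

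Sulfate reaches the chain through an activated donor that is made in the cytosol and carried into the Golgi. Of the 11 measured genes of this supply and of the sugar nucleotides, 1 was at least 2-fold lower, beside 8.37% of all measured genes. That gene was Slc26a2, a sulfate transporter of the cell membrane. It stood at 74.1 FPKM in wild type cells and 18.4 FPKM in resistant cells, 4.02 times apart (95% counting interval 3.87 to 4.18). Slc26a2 lies on chromosome 18 from 61192919 to 61211612, its lower end 0.508 Mb above that of Ndst1, and the measured protein-coding genes between them, Rps14, Tcof1 and Hmgxb3, had log2 ratios of 0.48, 0.09 and 0.61. The donor synthase genes traded places: Papss1 stood at 19.2 FPKM in wild type cells and 28.3 FPKM in resistant cells, and Papss2 at 34.2 and 22.1 FPKM. The Golgi donor transporter gene Slc35b2 stood at 24.1 FPKM in wild type cells and 14.5 FPKM in resistant cells. Ugp2, which makes UDP-glucose, was the 1 gene of the 11 at least 2-fold higher, beside 7.9% of all measured genes. Its level was 25.4 FPKM in wild type cells and 61.4 FPKM in resistant cells.

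The list of growth factor genes whose products bind heparan sulfate, which also holds the FGF carrier gene Fgfbp1, had 8 measured genes. Of these, 3 were higher by at least 2-fold, beside 7.9% of all measured genes, and 2 were lower, beside 8.37%. Fgfbp1, a carrier that frees FGFs from the matrix, had the highest ratio, at 1.80 FPKM in wild type cells and 26.1 FPKM in resistant cells (14.5 times, 95% counting interval 11.7 to 18.3). Areg and Vegfa were higher too, at 20.5 and 13.5 FPKM in wild type cells and 103.0 and 50.04 FPKM in resistant cells. Fgf1 stood at 29.1 FPKM in wild type cells and 8.19 FPKM in resistant cells, and Fgf18 at 4.97 and 0.93 FPKM. Fgf18 passed the filter of 1 FPKM through the wild type library alone. Of 7 measured receptors that signal with heparan sulfate, 3 were at least 2-fold lower, beside 8.37% of all measured genes, and none higher, beside 7.9%. These 3 passed the filter of 1 FPKM through the wild type library alone, so the count is read no further. Flt1 stood at 4.66 FPKM in wild type cells and 0.83 FPKM in resistant cells. Fgfr2 and Smo were near the level filter, at 1.53 and 1.46 FPKM in wild type cells and both at about 0.06 FPKM in resistant cells. Fgfr4, the FGF receptor gene with the highest level in both libraries, was named after its values were seen and stood at 7.90 and 6.80 FPKM.

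Sulf2 was selected on its low ratio, so its gap to the genes around it is a description. The nearest measured protein-coding gene on its lower side, Ncoa3, a nuclear receptor coactivator gene, ends within Sulf2 on the opposite strand and shares 154 exon bases with it, 2.62% of the exon bases of Sulf2. Ncoa3 stood at 19.8 FPKM in wild type cells and 19.3 FPKM in resistant cells. On the upper side Prex1, a Rac activator gene, stood at 4.44 and 5.05 FPKM. Over the 10 measured protein-coding genes around Sulf2, 5 a side, the median log2 ratio was -0.12, and it was -1.17 over the lower 5 and 0.09 over the upper 5. The 3 of the 10 at least 2-fold lower, beside 8.37% of all measured genes, were Eya2, Zmynd8 and Trp53rka, all beyond Ncoa3. Zfp334, on the same side, was lower too, at -0.81. These 4 were named after their values were seen, and none came near -3.75.

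**Figure D5:**
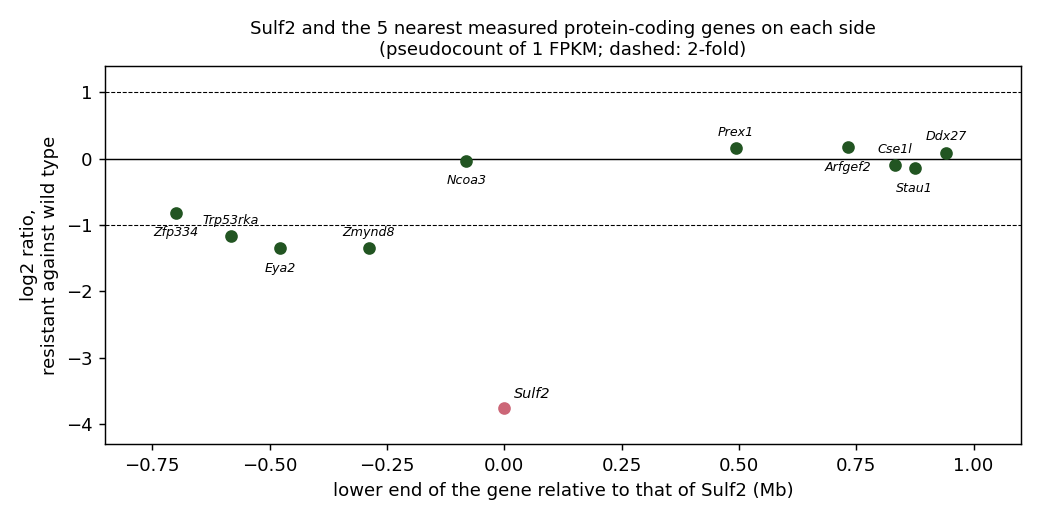
Log2 ratio (vertical, pseudocount of 1 FPKM) of Sulf2 in red and of the 5 nearest measured protein-coding genes on each side in green, by distance in megabases between lower gene ends. Sulf2 at -3.75 lies below all 10 neighbours, and the gene next to it, Ncoa3, lies at -0.03.

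The 5 protein-coding genes nearest to Sulf2 in level over the 2 libraries, by Euclidean distance on the log2(FPKM + 1) scale, were Ambp, Dhrs3, Ccne2, Gata5 and Fam13b, at distances of 0.24 to 0.87. With 2 libraries this measures level alone. Ambp stood at 28.0 FPKM in wild type cells and 0.77 FPKM in resistant cells, and the cyclin gene Ccne2 at 17.4 and 1.5 FPKM. The authors' deposited table held a test of the 2 libraries. It called 56 of the 13850 genes it tested (0.404%) and none of the 9 members among them, a count that says nothing about the members. In the authors' deposited table Sulf2 had a p-value of 0.0554 and a q-value of 0.998, Gpc1 a p-value of 0.108, Ndst1 a p-value of 0.562, and Sulf1 was marked as not tested.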

How the data were processed

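Total RNA of 2 KPC2 cell libraries was sequenced, 1 wild type and 1 gemcitabine resistant. HISAT2, StringTie and GRCm38 are named, without role or version, in the submitters' processing notes. The authors deposited 1 value per gene and library under a header without a unit, taken here for FPKM because the values are not whole and sum to 998508 and 1197279. The log2 fold change, test statistic (a score) and p-value and q-value columns are the authors' own, per the file headers.

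Rows of 1 symbol were summed, leaving out 13 that the authors' table marks as failed or too deep. Genes at 1 FPKM or more in either library were measured, and log2((resistant + 1)/(wild type + 1)) was the measure, which understates differences of low genes. Low values of single-transcript genes, times length less 160 bases, lay within 0.1 of whole fragments for 93.2% (wild type) and 93.8% (resistant), with 1 fragment worth 0.0418 and 0.0431 FPKM at 1 kb. Intervals (95%, exact Poisson or Clopper-Pearson) use the longest coding transcript and cover counting error only. No test was possible with 1 library per group. Gene places and exon overlaps come from GENCODE M21. Steps were tested on simulated data. Members, lists and rules were chosen with earlier results of these data known. A gene of 1 list is not reported here and is in no count. Named genes were the members, up to 3 genes per list and direction at least 2-fold apart, the top proteoglycan of each list, and neighbours of Sulf2 in place or level; other genes named for a role come from the fixed lists, chosen after their values were seen. Alternatives were pseudocounts of 0.1 and 5, other filters, scalings, thresholds and windows. Used were matplotlib 3.10.9, scipy 1.17.1, pandas 2.3.3 and numpy 2.4.6 in Python 3.11.15.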

Additional observations from a re-analysis of the deposited data

How the results depend on the processing

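The log2 ratio of Sulf2 was -4.52 with a pseudocount of 0.1 FPKM and -2.40 with one of 5 FPKM, and moved by less than counting error under the other filters, scalings and row choice. The count of members at least 2-fold lower was 1 with a pseudocount of 5 FPKM, with a threshold of 4-fold and without Ndst1, and 2 elsewhere. No member was at least 2-fold higher, but 1 was past a 1.5-fold threshold. The median log2 ratio of the members was -0.12 with no level filter, which adds Sulf1, and -0.10 without Ndst1. Of the wider heparan sulfate genes, 1 was lower and 0 higher with a pseudocount of 5 FPKM and likewise past 4-fold. There were 2 lower and 0 higher with a filter of 5 FPKM, 7 lower and 6 higher past 1.5-fold, and 5 higher with a pseudocount of 0.1 FPKM. Over all measured genes, 2.44% were lower and 3.51% higher with a pseudocount of 5 FPKM, and 1.05% and 1.8% past 4-fold. These shares were 7.84% and 7.76% with a filter of 5 FPKM, and 19.7% and 18.4% past 1.5-fold. With a pseudocount of 0.1 FPKM, 10.8% of all measured genes were higher. The median around Sulf2 was 0.061 with 2 genes on each side. The alternatives for the wider genes, for windows and without Ndst1 were chosen after seeing the data. Of 26 other named genes past 2-fold, 14 stayed past it in the same direction under every alternative that gave a value. No paired analysis was possible because each group has 1 library. Low genes such as Extl1 rest on few fragments.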

Other observations

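Chondroitin and dermatan sulfate are sister chains that share the linker with heparan sulfate. Of 7 measured genes that build them, Chst12, a chondroitin sulfotransferase gene, was at least 2-fold lower, at 7.89 FPKM in wild type cells and 3.04 FPKM in resistant cells, and the other 6 lay within 2-fold on the log2(FPKM + 1) scale, where 8.37% of all measured genes were at least 2-fold lower. Of the chondroitin sulfate proteoglycans, 2 of 10 were measured. Cspg4, also known as NG2, stood at 7.87 FPKM in wild type cells and 1.24 FPKM in resistant cells, 6.34 times apart (95% counting interval 5.52 to 7.33). Acan, the aggrecan gene, stood at 20.8 and 27.4 FPKM.

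Of 4 measured hyaluronan genes, 1 was at least 2-fold lower, beside 8.37% of all measured genes. It was the hyaluronidase gene Hyal2, at 19.0 FPKM in wild type cells and 6.16 FPKM in resistant cells. The 3 synthase genes were under 1 FPKM in both. Among other sulfatases, Arsb, which acts on dermatan sulfate in lysosomes, stood at 5.81 FPKM in wild type cells and 15.1 FPKM in resistant cells. Of 4 measured genes linked to shedding of the core proteins, 1 was at least 2-fold higher, beside 7.9% of all measured genes. It was the urokinase receptor gene Plaur, not a protease gene, at 92.5 FPKM in wild type cells and 329.3 FPKM in resistant cells. The other 3, the protease genes Adam10, Adam17 and Mmp14, lay within 2-fold. The syndecan sheddase genes Adam10 and Adam17 were near level, at 48.4 and 14.6 FPKM in wild type cells and 49.4 and 12.5 FPKM in resistant cells. Mmp14 stood at 34.1 FPKM in wild type cells and 49.9 FPKM in resistant cells.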
